A study of Mus musculus with 4 samples.

Results

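The cells described here were CD8 T cells outside the cell cycle with the most RNA of Ly6c2, the gene of the surface protein Ly6C. They numbered 210 of 2102 base cells, which in turn were drawn from 15752 cells in 4 mouse single-cell libraries. A base cell had at least 1 UMI (unique molecular identifier, a count of 1 captured transcript) of each of Cd3e, Cd8a and Cd8b1 and none of Cd4, Foxp3 and Ncr1. It also had fewer than 3 UMIs of Mki67 and Top2a together, fewer than 5 of Ifit1, Ifit3 and Rsad2 together, and fewer than 20 of Gzmd, Gzme and Gzmg together. Members were chosen by their Ly6c2 level alone, as the 10% of base cells, pooled over the libraries, with the highest Ly6c2 UMIs per 10000 UMIs of the cell. The other 1892 base cells served as the comparison.

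Ly6C is a small protein held in the outer membrane by a lipid anchor, and it belongs to the Ly6 family, many of whose genes form a cluster on mouse chromosome 15. On CD8 T cells it appears with activation and stays on many memory and effector cells, and both type I interferon and interferon gamma are known to raise it. Interferons bind receptors that activate STAT proteins, which switch on a shared set of antiviral and antigen presentation genes. T cells that leave the blood for an inflamed tissue follow chemokines through receptors such as CXCR3 and CCR2, and kill through granzymes and perforin.

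The labels call the 4 libraries IgG, Ac, C and aC+C, with 1 library per group, and do not spell these names out. The titles name immune cells that had entered tumors, whereas the cell type field and the protocol name goblet cells of the gut from reporter mice, and the field called genotype gives 6-8 weeks old. No strain, tumor model, agent, dose or number of pooled animals was given in these labels. In the members, 9 of 11 epithelial and goblet cell markers had no UMI, and the list summed to between 0 and 7.79 CPM (UMIs per 1000000 UMIs of the cell set) in the 4 libraries. The members thus lacked the defining goblet cell markers. Since the gate asks for T cell RNA, this cannot decide between the labels for the whole libraries. The titles were followed. With 1 library per group, no test between groups was possible, and intervals between libraries cover counting error only. The 4 libraries held 61519049 to 75665201 UMIs and 3436 to 4208 cells past the filters. Any pair of libraries shared 2 to 7 cell barcodes, and none of these was a base cell.

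The share of members was highest in Ac. In Ac, 123 of 687 base cells were members (17.9%, exact 95% interval 15.1% to 21.0%), against 35 of 560 in IgG (6.25%, 4.39% to 8.59%). There were 19 of 362 in C (5.25%, 3.19% to 8.08%) and 33 of 493 in aC+C (6.69%, 4.65% to 9.27%). The share in Ac was 2.86 times that in IgG (interval 2.00 to 4.10). The ratio to IgG was 0.840 in C (0.488 to 1.44) and 1.07 in aC+C (0.676 to 1.70), so neither differed from IgG beyond counting error. Ac held 58.6% of all members and 32.7% of all base cells. The pooled Ly6c2 threshold chose the members, and these shares describe where they fell.

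Ly6c2 levels showed no break at the threshold. The 3 lowest members had 31.7, 31.8 and 31.8 Ly6c2 UMIs per 10000, and the 3 cells just below had 31.4, 31.3 and 31.1. Members had 15 to 98 Ly6c2 UMIs each, with a median of 36. The median base cell of Ac had 7.68 Ly6c2 UMIs per 10000, against 2.65 for IgG, 1.79 for C and 3.37 for aC+C. Base cells with no Ly6c2 UMI made up 27.7% in Ac and 35.0%, 35.4% and 33.1% in IgG, C and aC+C. The upper tail was therefore longest in Ac, where the level that 10% of base cells exceeded was 42.0 per 10000, against 22.6 in IgG, 21.2 in C and 25.2 in aC+C. In every library the members were shallower than the other base cells, with median totals of 7822, 8078, 5814 and 6653 UMIs against 11098, 9701, 10006 and 10552.5 in IgG, Ac, C and aC+C. Since the gates count raw UMIs, a shallow cell passes them with a larger share of interferon or granzyme RNA than a deep one. For that reason, calls of most lists are also given within depth, which means that the 10% were taken from each of 10 classes of cells of like UMI total.

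**Figure D1:**
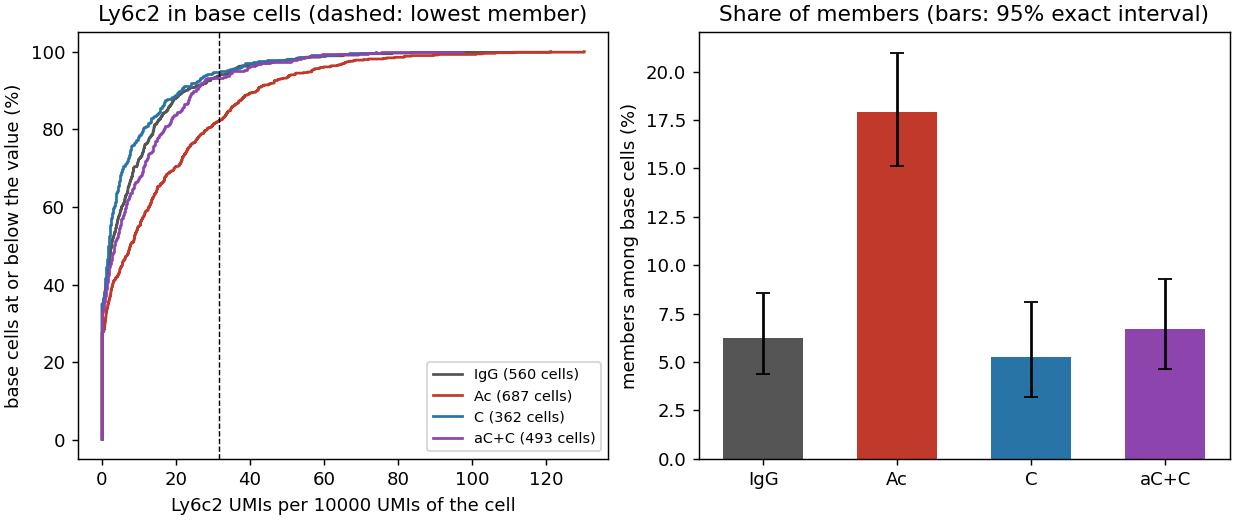
Left, the cumulative percent of base cells (vertical) at or below each level of Ly6c2 UMIs per 10000 (horizontal), 1 line per library, with the lowest member at the dashed line. Right, members as a percent of base cells with exact 95% intervals for counting error; Ac stands at 17.9% and the other libraries between 5.25% and 6.69%.

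Ly6c2 RNA was found in other cells of the suspension too. Summed over cells passing an NK gate it was 246, 213, 233 and 160 CPM in IgG, Ac, C and aC+C, and over macrophages with C1q genes 457, 199, 296 and 321 CPM. Barcodes of 1 to 50 UMIs, which hold free RNA and debris, gave 457, 469, 360 and 496 CPM. In all base cells it was 721, 1309, 566 and 838 CPM, above the low barcodes in every library. CD8 T cells that failed the gate for Ifit1, Ifit3 and Rsad2 had more, 1055, 2193, 1031 and 1308 CPM, and cycling CD8 T cells had 353, 470, 265 and 502 CPM. In each of these CD8 sets but the cycling cells, Ac was highest. Of the runs of 50 bases in the last 400 bases of the Ly6c2 transcript, 25.1% also occur in Ly6c1 transcripts, so reads of these neighbours cannot always be told apart.

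The label names Ccl5, S100a6 and Ifitm2 beside Ly6c2. These were picked with results known and are described in this paragraph without a test. They remain in the later counts of calls and lists, where they add no independent support. Values are given throughout in the order IgG, Ac, C and aC+C. Ccl5, a chemokine that draws T cells and monocytes, was at 3911, 6210, 5305 and 4844 CPM in members and at 2431, 3134, 1620 and 2385 CPM in other base cells. The lowest member value lay above the highest value of the other cells. S100a6, a calcium-binding protein, was at 2236, 4751, 2040 and 2605 CPM in members and 2087, 2323, 1563 and 2073 CPM in other base cells. It was higher in members of all 4 libraries, but the groups overlapped and the difference was largest in Ac. Ifitm2, a membrane protein that blocks virus entry, was at 248.8, 708, 495 and 413 CPM in members against 252, 271, 294 and 238 CPM, so that IgG members did not have more. Of the label's genes beside Ly6c2, which chose the members, Ccl5 and S100a6 were thus higher in every library, and Ifitm2 in 3 of 4. In barcodes of 1 to 50 UMIs, Ccl5 was at 1323, 1436.5, 855 and 1046 CPM, below members. S100a6 was there at 2826, 3385, 3632 and 4352 CPM, above members except in Ac. Ifitm2 was at 700, 844, 809 and 851 CPM, above members in every library. CD8 T cells failing the gate for Ifit1, Ifit3 and Rsad2 had 3852, 5557, 1848 and 2866 CPM of Ccl5. They had 1913, 2996, 2160 and 2553 CPM of S100a6 and 325, 402, 568 and 409 CPM of Ifitm2. The part of free RNA was not tested.

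UMIs were summed over members and over other base cells in each library, and these 8 sums were compared with edgeR's quasi-likelihood test with the library as a block. Of 8879 genes tested outside the rule, 290 were higher in members (3.27% of those tested) and 316 lower (3.56%) at a Benjamini-Hochberg adjusted p under 0.05. The 4 member values did not overlap the 4 other values for 1069 genes (12.0%), among them 195 of the higher and 196 of the lower genes. The median log2 fold change over all genes was -0.02. Within depth there were 121 genes higher and 97 lower, of which 108 and 71 were also called without regard to depth. Without Ac, which held most members, 139 were higher and 116 lower.

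Of 32 tested genes of the type I interferon response, 20 were higher in members (62.5%, against 3.27% of all genes) and none was lower, with a median log2 fold change of 0.80. The groups of libraries did not overlap for 20 of the 32, against 12.0% of all genes tested. With cells ranked within depth 12 were higher and none lower, and 12 again were higher when cells with RNA of antigen-presenting cells were also removed. Without Ac 18 of the 20 kept their call. The gate had itself excluded cells with 5 or more UMIs of Ifit1, Ifit3 and Rsad2 from both sets.

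Isg15, a ubiquitin-like protein that is attached to other proteins, was at 208.5, 209, 160 and 280 CPM in members and at 90.3, 89.7, 78.2 and 77.7 CPM in other base cells. All member values lay above all other values (log2 fold change 1.36 ± 0.13 SE, adjusted p = 2.184e-07, n = 4 libraries). Usp18, which removes Isg15 again, was at 40.4, 42.1, 53.3 and 70.1 CPM against 20.6, 17.6, 21.7 and 22.3 CPM (1.31 ± 0.22, adjusted p = 0.0002204), but with cells ranked within depth its change was 0.52 with an adjusted p of 0.3715. Oas3, an oligoadenylate synthetase that activates RNase L on sensing double-stranded RNA, was at 84.1, 78.4, 99.0 and 74.0 CPM against 25.6, 26.9, 24.0 and 20.4 CPM, without overlap (1.73 ± 0.18, adjusted p = 5.263e-07). Oas1a, of the same enzyme family, rose by 1.43 ± 0.29, on 4 to 35 UMIs per library. Its call was lost without Ac (adjusted p = 0.1024), and with antigen-presenting cell RNA removed and cells ranked within depth (0.71, adjusted p = 0.3689).

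Bst2, or tetherin, which holds budding virus at the membrane, was at 783.5, 653, 723 and 635 CPM in members and at 314, 290.1, 295.5 and 279.9 CPM in other cells. The groups did not overlap (log2 fold change 1.24 ± 0.09, adjusted p = 3.914e-09), and within depth the change was 0.92. Irf7, the transcription factor that amplifies type I interferon, was at 151, 107, 251 and 175 CPM against 96.4, 58.3, 77.7 and 62.8 CPM (1.11 ± 0.15). Ifit1bl1, a relative of the Ifit1 gene of the gate, had the largest rise of the named genes outside the rule, from 7.61, 7.08, 6.00 and 6.01 CPM to 37.0, 41.1, 38.1 and 42.8 CPM (2.56 ± 0.28, adjusted p = 1.374e-06). It rested on 5 to 43 UMIs per library, and within depth its change was 1.63 (adjusted p = 0.002398). Ddx60, a helicase that aids RNA sensing, was at 60.5, 22.9, 38.1 and 46.7 CPM against 12.3, 13.9, 12.7 and 11.8 CPM (1.55 ± 0.30). Ube2l6, the enzyme that conjugates Isg15, rose by 1.24 ± 0.25 and Rnf213, an interferon-induced ubiquitin ligase, by 1.29 ± 0.12. Pydc4, a gene of the pyrin domain family, rose by 1.59 ± 0.18, with 45.7 CPM in members of C and 164 in those of aC+C.

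The bases just before the start of Ly6c2 and of 2 of these genes are shown because the interferon response was the list with the most calls. They were read from RefSeq (GRCm38.p6, the same coordinates as mm10) for the 250 bases before the start, 5′ to 3′ on the gene's strand. Capitals mark GAAANNGAA on either strand, the core of the interferon-stimulated response element, to which STAT and IRF proteins bind. The Ly6c2 window is chr15:75111972-75112221 on the minus strand, ahead of the gene at chr15:75108158-75111970. The windows of Isg15 and Oas3 are chr4:156200819-156201068 and chr5:120777660-120777909, both on the minus strand, with the Isg15 gene at chr4:156199424-156200818 and the Oas3 gene at chr5:120753098-120777661.
Ly6c2: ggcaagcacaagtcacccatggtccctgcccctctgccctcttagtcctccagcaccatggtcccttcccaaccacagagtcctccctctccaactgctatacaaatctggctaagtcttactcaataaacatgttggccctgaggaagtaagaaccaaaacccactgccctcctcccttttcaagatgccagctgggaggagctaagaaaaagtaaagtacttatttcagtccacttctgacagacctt
Isg15: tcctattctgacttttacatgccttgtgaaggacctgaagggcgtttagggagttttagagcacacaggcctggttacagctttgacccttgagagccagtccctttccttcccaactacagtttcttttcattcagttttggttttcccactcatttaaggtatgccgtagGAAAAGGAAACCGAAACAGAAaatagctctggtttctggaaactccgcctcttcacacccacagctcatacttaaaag
Oas3: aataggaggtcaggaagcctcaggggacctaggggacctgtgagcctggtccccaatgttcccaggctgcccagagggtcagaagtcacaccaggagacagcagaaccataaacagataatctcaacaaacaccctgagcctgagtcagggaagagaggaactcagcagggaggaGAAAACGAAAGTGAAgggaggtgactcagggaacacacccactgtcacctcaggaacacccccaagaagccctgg
The Isg15 window held 3 matches that overlap into 1 run, the Oas3 window 2 that overlap, and the Ly6c2 window none. No match says only that these letters are not in this window. Of 27025 genes in the table, 7.16% had a match in this window, and of the tested genes with an entry 6.76%. A match was present for 30 of 217 genes called higher (13.8%), 22 of 256 called lower (8.59%), and 6 of 16 called genes of the type I interferon list (37.5%). TTCNNNGAA, the core of the gamma-activated site, was in 7.18% of all windows, 19 of 217 genes called higher (8.76%) and 19 of 256 called lower (7.42%). The motifs were counted separately on both strands, so a window could hold both. Of the 290 higher genes 217 had an entry, and of the 316 lower genes 256. These are counts of letters and not of bound sites.

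Genes of the interferon gamma response and of MHC class I, which shows peptides to CD8 T cells, were called higher for 17 of 33 tested (51.5%, against 3.27% of all genes). The 1 lower gene was Irf8 (3.03%, near the share over all genes), and the median log2 fold change was 0.41. Within depth 7 were higher and none lower, and without Ac 11 of the 17 kept their call and Irf8 did not. H2-K1, a classical MHC class I chain, was at 4641, 4778, 4476 and 4380 CPM in members and at 3033, 3314, 2911 and 2883 CPM in other cells (log2 fold change 0.59 ± 0.06, adjusted p = 2.76e-07). B2m, the light chain of all class I molecules, was at 4106, 4434, 3988 and 3578 CPM against 3212, 3325, 3042 and 2917 CPM, a smaller change of 0.36 ± 0.06 with no overlap. The nonclassical genes H2-Q7, H2-Q6 and H2-Q4 rose by 0.81, 0.77 and 0.89; their near-identical sequences mean that counts may be split between them. Irf8, a transcription factor also abundant in antigen-presenting cells, was at 440.5, 158, 449 and 463 CPM against 552, 363, 535 and 552 CPM; within depth its change was -0.10.

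**Figure D2:**
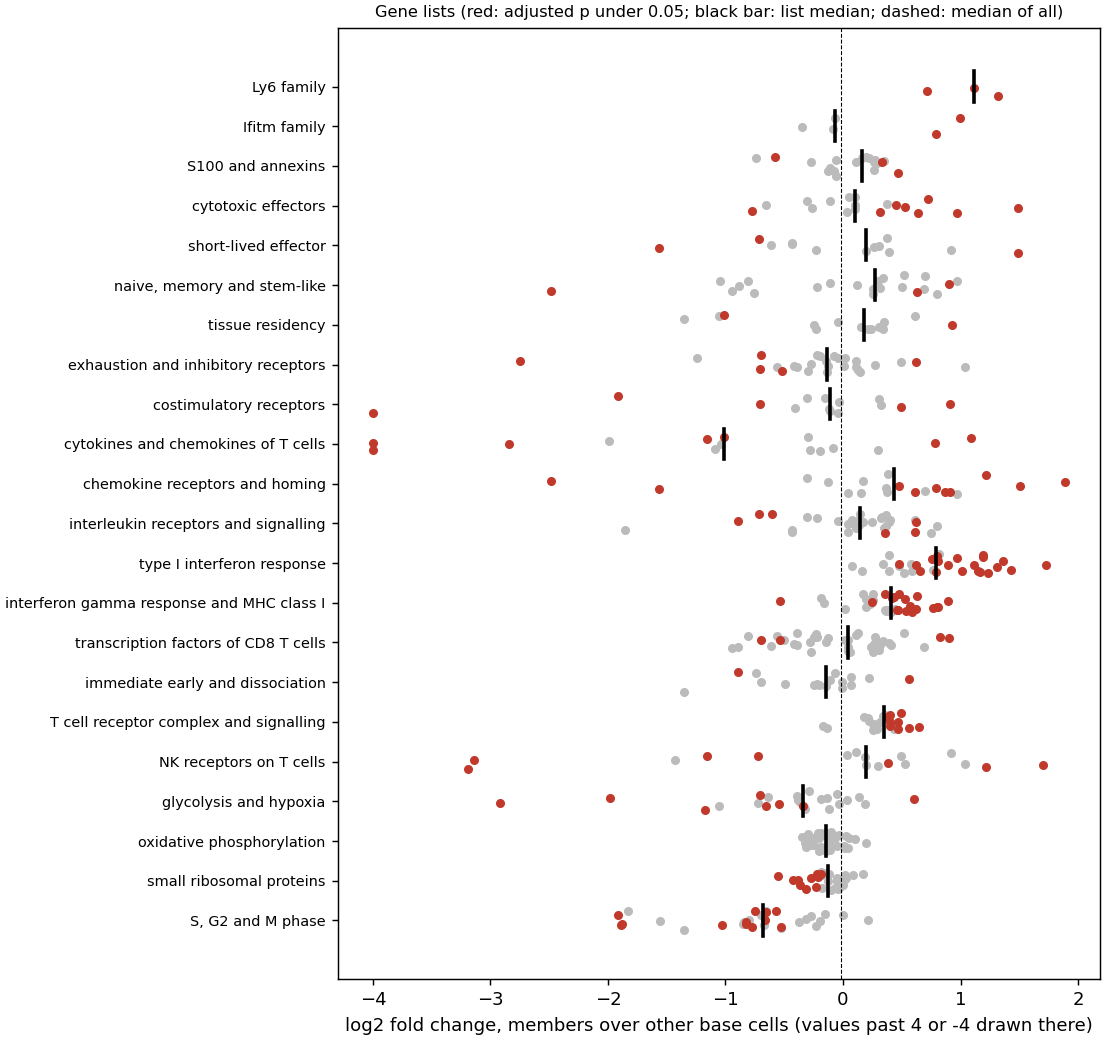
Each point is 1 tested gene of a list (rows), placed at its log2 fold change of members over other base cells (horizontal, values beyond 4 or -4 drawn there); red marks an adjusted p under 0.05 and the black bar the list median. The type I interferon row has 20 red points of 32, all to the right, and the row of S, G2 and M phase genes 12 of 30, all to the left.

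The 3 tested members of the Ly6 family outside the rule were all higher (100%, against 3.27% of all genes). Ly6c1, which shares bases with Ly6c2, was left out. Within depth 2 of the 3 kept their call, and without Ac 2 as well. Ly6a, or Sca-1, a Ly6 protein of activated T cells, was at 905, 987, 974 and 1226 CPM in members and at 445, 446, 373 and 629 CPM in other base cells, without overlap (1.12 ± 0.09, adjusted p = 7.003e-09). No run of 50 bases in the last 400 bases of Ly6c2 occurs in Ly6a transcripts. Ly6e, a broadly expressed interferon-induced relative, was at 790.3, 863, 1248 and 1059 CPM against 612, 571, 650.0 and 536 CPM (0.71 ± 0.09). Ly6g5b was low, at 20.2, 41.1, 7.61 and 0 CPM against 8.22, 12.6, 6.24 and 6.79 CPM, and its call was lost without Ac (adjusted p = 0.8867). Of 5 Ifitm genes tested, Ifitm2 and Ifitm10 were higher (40%, against 3.27% of all genes) and none lower. Both calls were lost without Ac (adjusted p = 0.06758 and 0.4847), and that of Ifitm10 also within depth (0.08926). The list had a median of -0.07 that turned to 0.78 with antigen-presenting cell RNA removed and cells ranked within depth. Of 19 S100 and annexin genes, S100a6 and S100a10 were higher (10.5%) and Anxa5 lower (5.26%), against 3.27% and 3.56% over all genes. All 3 calls were lost without Ac, with adjusted p of 0.1619, 0.06216 and 0.1508, and within depth Anxa5 was at -0.21 (adjusted p = 0.5349). S100a10 was at 1281, 1377, 1302 and 1390 CPM against 984, 1145, 1006 and 1122 CPM (0.33 ± 0.07).

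Of 20 tested chemokine receptor and homing genes, 8 rose (40.0%, against 3.27% of all genes) and 2, Ccr7 and Cx3cr1, fell (10%, against 3.56%). The same 8 rose within depth, where Cx3cr1 fell, and without Ac. Cxcr3, the receptor for the interferon-induced chemokines Cxcl9 and Cxcl10, was at 60.5, 59.3, 68.5 and 120.7 CPM in members and 17.5, 22.9, 24.5 and 14.3 CPM in other cells (1.89 ± 0.24, adjusted p = 8.956e-06). The groups did not overlap, and within depth the change was 1.03 (adjusted p = 0.01147). Thinned to 1000 UMIs per cell, 5.71%, 4.88%, 5.26% and 15.2% of members had a Cxcr3 UMI against 2.86%, 2.84%, 3.21% and 2.83% of other base cells. Unthinned, these shares were 37.1%, 33.3%, 31.6% and 36.4% against 13.7%, 17.0%, 17.8% and 11.3%. In C1q macrophages, which lack the receptor and had median totals of 12246, 15584, 13406 and 14671 UMIs, the thinned share was 0.347%, 0.149%, 0.306% and 0.135%, and the unthinned share 2.08%, 2.53%, 2.76% and 1.49%. Member shares thus lay above this background in every library, but the thinned shares rest on few cells. Their exact intervals overlapped those of macrophages in IgG (0.70% to 19.2% against up to 1.92%) and C (0.13% to 26.0% against up to 1.10%). In Ac and aC+C they began at 1.81% and 5.11%, above the macrophage intervals (up to 0.83% and 0.75%). Thinned intervals of members also overlapped those of other base cells in IgG, Ac and C, but not in aC+C (up to 4.78%).

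Ccr2, a receptor for Ccl2 that monocytes carry as well, was at 178, 189, 350.1 and 175 CPM against 94.0, 77.6, 106 and 32.6 CPM (1.50 ± 0.16). With cells holding antigen-presenting cell RNA removed, its change was 2.02 (adjusted p = 4.1e-15). Cxcr4, the receptor for Cxcl12, was at 108, 66.9, 145 and 105 CPM against 50.1, 58.3, 49.7 and 36.1 CPM (0.91 ± 0.19). Gpr183, a receptor for oxysterols, rose by 0.79, Itgb7, an integrin chain of gut homing, by 0.87, Itgal, a chain of the integrin LFA-1, by 0.61, and Selplg, the ligand of selectins, by 0.48. Ccr7, which leads cells to lymph nodes, fell from 172.5, 102, 145 and 79.7 CPM to 40.4, 1.91, 22.8 and 58.4 CPM (-2.48 ± 0.35), and dendritic cells carry it too; within depth the change was -0.38 with an adjusted p of 0.6639. Cx3cr1, the fractalkine receptor, was at 10.1, 11.5, 68.5 and 42.8 CPM against 67.0, 59.4, 90.7 and 64.4 CPM (-1.57 ± 0.27, and -2.07 with antigen-presenting cell RNA removed and cells ranked within depth), and lost its call without Ac (adjusted p = 0.06537).

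**Figure D3:**
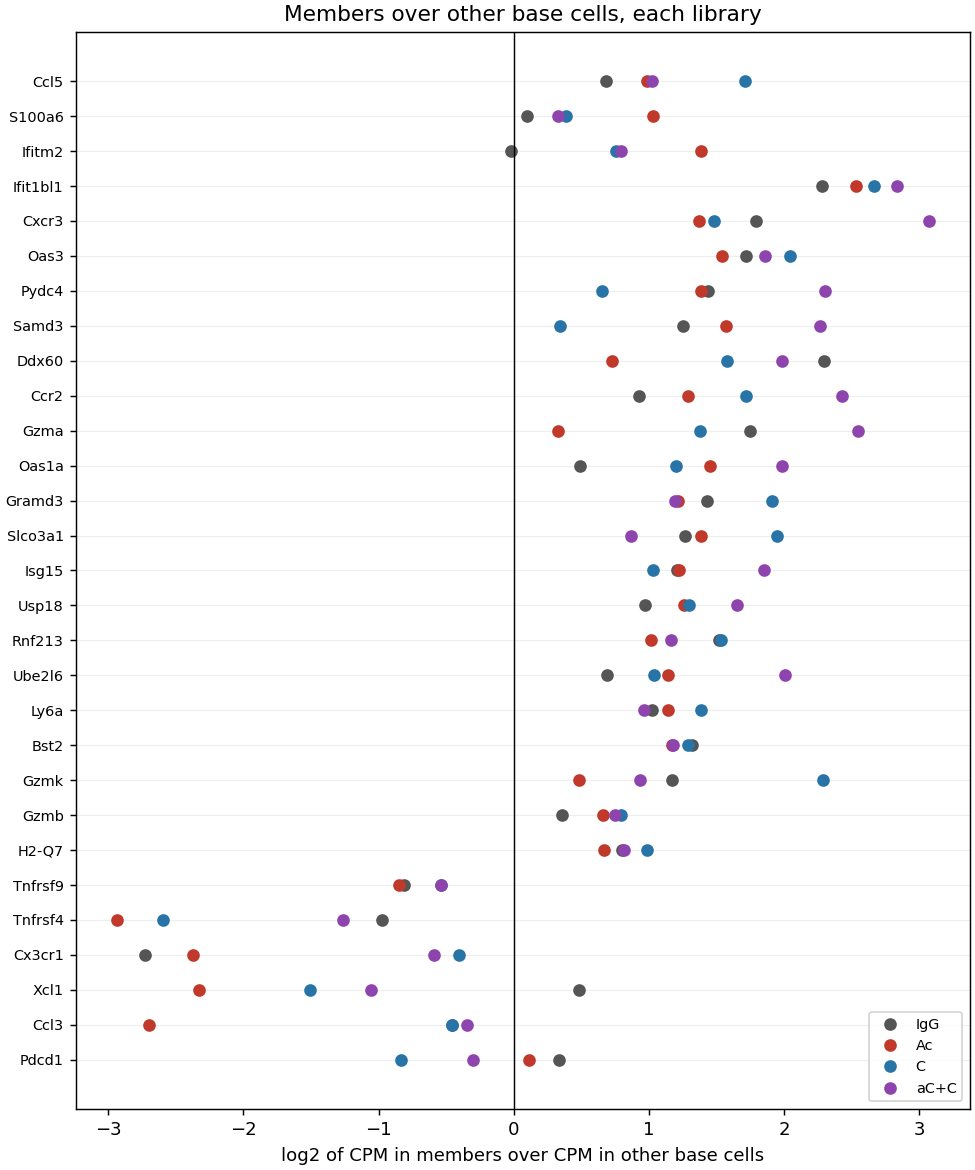
Points give, for each gene (rows) and library (colours), the log2 ratio of CPM in members to CPM in other base cells, with 0 meaning equal levels. The 15 highest named genes of the fit, from Ifit1bl1 to Ube2l6, were picked among called genes with the same sign in all libraries. That all 4 libraries lie right of 0 for them therefore follows from the choice. Xcl1 and Pdcd1, which were not picked by sign, fall on both sides.

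Of 18 tested cytotoxic genes, 7 rose (Gzma, Gzmk, Ctsw, Gzmb, Fasl, Nkg7 and Ctsd) and Ctsc fell, with a median of 0.11. These are 38.9% and 5.56%, against 3.27% and 3.56% over all genes. With cells ranked within depth Gzma, Gzmb, Ctsw and Ctsd rose and none fell. Without Ac the calls of Fasl, Ctsd and Ctsc were lost. Gzmb, the main apoptosis-inducing granzyme, was at 1631, 2236, 1789 and 3053 CPM in members and 1273, 1417, 1030 and 1816 CPM in other cells (0.64 ± 0.07, adjusted p = 2.113e-06). It was higher in each library, although the IgG members lay below the other cells of aC+C. Gzmk, a granzyme of early effector and memory-like cells, was at 118, 122, 137 and 163.5 CPM against 52.2, 87.4, 28.0 and 85.7 CPM (0.97 ± 0.18), but 0.39 within depth with an adjusted p of 0.2421. Gzma, a tryptase-like granzyme, was at 276, 179.7, 297 and 740 CPM against 82.1, 143, 114 and 127 CPM (1.49 ± 0.21), and 15.2% of its member UMIs came from 1 cell. Within IgG 58.5% and within aC+C 40.0% of its member UMIs came from 1 cell. Cells with a Gzma UMI made up 5.71%, 10.6%, 10.5% and 36.4% of members and 9.14%, 10.1%, 11.1% and 12.8% of other base cells. These shares were close in Ac and C, lower in members of IgG and higher in members of aC+C. With antigen-presenting cell RNA removed and cells ranked within depth the change of Gzma was 0.51 with an adjusted p of 0.2583. Ctsw, a protease of killer cells, was at 625.5, 787, 685 and 600 CPM against 386.5, 455, 390 and 403 CPM (0.72 ± 0.09). Nkg7, a protein of cytotoxic granules, rose by 0.45 ± 0.06. Prf1, perforin, gave 141, 102, 160 and 179 CPM against 110, 138, 121 and 234 CPM, with no consistent side (-0.11, adjusted p = 0.7791).

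Of 15 tested cytokine and chemokine genes, Ccl5 and Il16 were higher (13.3%, against 3.27% of all genes). Ccl1, Csf2, Ccl9, Ccl3 and Xcl1 were lower (33.3%, against 3.56% of all genes), with a list median of -1.01. Without Ac the calls of Il16, Ccl3 and Xcl1 were lost, and Ccl9 is also a myeloid gene. Within depth Ccl5 was higher and Ccl3, Ccl4, Xcl1, Csf2 and Ccl1 were lower. Ccl3, a chemokine that attracts leukocytes, was at 94.2, 39.2, 175 and 171 CPM in members and 129, 254, 240.1 and 218 CPM in other cells (-1.16 ± 0.25, adjusted p = 0.003354). The difference was largest in Ac, and without Ac the change was -0.43 (adjusted p = 0.185). Xcl1, a chemokine for cross-presenting dendritic cells, was at 124, 18.2, 60.9 and 35.0 CPM against 89.2, 91.1, 173 and 72.7 CPM, with IgG on the other side (-1.01 ± 0.28, and -0.39 without Ac, adjusted p = 0.6194). Members had 37, 19, 8 and 9 Xcl1 UMIs, and 26.0% of all of them came from 1 cell. In IgG 17.1% of members and 19.2% of other base cells had an Xcl1 UMI. Ccl1, a chemokine of activated T cells, had 1 UMI in all members together, at 0.956 CPM in Ac, against 10.8, 47.7, 61.2 and 18.4 CPM in other cells. Ifng, the interferon gamma gene itself, was at 323, 175.9, 274 and 152 CPM against 199, 221, 333.5 and 227 CPM (-0.09 ± 0.15, adjusted p = 0.8381).

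Among costimulatory receptors, Slamf7 and Cd2 were higher (14.3% of 14 tested) and Cd81, Tnfrsf4 and Tnfrsf9 lower (21.4%), against 3.27% and 3.56% over all genes. Within depth Slamf7 was higher and Tnfrsf4, Tnfrsf9, Tnfrsf18, Cd27 and Cd81 lower. Cd2 was at 0.15 within depth (adjusted p = 0.617) and lost its call without Ac (adjusted p = 0.09687). Tnfrsf4, or OX40, fell from 126, 124, 138 and 140.5 CPM in other cells to 63.9, 16.2, 22.8 and 58.4 CPM in members, without overlap (-1.91 ± 0.23, adjusted p = 4.589e-06, and -1.40 within depth). Tnfrsf9, or 4-1BB, which marks recent antigen contact, was at 232, 272, 259 and 339 CPM in members and at 407, 491.5, 375 and 492 CPM in other cells (-0.70 ± 0.10, adjusted p = 5.36e-05). Slamf7 was at 128, 166, 122 and 93.5 CPM against 61.2, 89.7, 58.2 and 61.3 CPM (0.91 ± 0.14). Of 27 tested exhaustion genes and inhibitory receptors, Vsir was higher (3.70%, near the share over all genes). Lower were Cd200, Tnfrsf9, Ikzf2 and Rgs16 (14.8%, against 3.56% of all genes). With cells ranked within depth none was higher, while Tox joined those 4 as lower. Without Ac the call of Rgs16 was lost. Pdcd1, the receptor PD-1, was at 393, 420.5, 129 and 319 CPM in members against 312, 390, 231 and 394 CPM, on both sides (-0.05 ± 0.13, adjusted p = 0.9206). Tox, a factor of exhausted T cells, was at 148, 184.5, 83.7 and 117 CPM against 184, 208, 179 and 177 CPM; it missed the threshold here (-0.39, adjusted p = 0.08447) and passed it within depth (-0.54, adjusted p = 0.02736). Vsir, or VISTA, rose by 0.62 ± 0.13.

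Of 22 tested genes of the T cell receptor complex and its signalling, 9 rose (40.9%, against 3.27% of all genes) and none fell, with a median of 0.35. Within depth 1 rose, Skap1, an adaptor of integrin activation, and without Ac 6 of the 9 kept their call. Cd3g was at 2179, 2676, 1971 and 2375 CPM in members and 1627, 1929, 1550.0 and 1874 CPM in other cells (0.40 ± 0.07). Lck, the kinase bound to CD8, was at 407, 397, 441.5 and 374 CPM against 285, 310, 263 and 296 CPM (0.47 ± 0.10), and at 0.26 within depth with an adjusted p of 0.1184. Of 32 interleukin receptor and signalling genes 3 rose, among them Ifngr1 and Il2rg, and Il2ra, Il18rap and Stat3 fell. This is 9.38% each way, against 3.27% and 3.56% over all genes. Within depth Ifngr1 was higher and Il18r1 lower, and without Ac the calls of Il2rg, Il2ra and Il18rap were lost. Ifngr1, a chain of the interferon gamma receptor, was at 699.5, 766, 731 and 716 CPM against 482, 502.5, 457 and 457 CPM (0.62 ± 0.09).

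Of 22 naive, memory and stem-like genes, Lef1 and Bcl2 were higher (9.09%, against 3.27% of all genes) and Ccr7 lower (4.55%, against 3.56%). Lef1 lost its call within depth (adjusted p = 0.2462) and without Ac (0.09807), and within depth Bcl2 was higher and Cd27 and Igfbp4 lower. Bcl2, which keeps T cells alive, was at 434, 533, 403 and 389 CPM against 273, 355.5, 298 and 224 CPM (0.63 ± 0.10). Tcf7, a factor of stem-like T cells, was at 74.0, 6.69, 129 and 19.5 CPM against 25.7, 12.7, 40.7 and 27.9 CPM, higher in members of IgG and C and lower in those of Ac and aC+C (0.69, adjusted p = 0.2689). Of 13 short-lived effector genes Gzma was higher (7.69%, against 3.27% of all genes) and Cx3cr1 and Il18rap lower (15.4%, against 3.56%). Within depth Klrg1 and Gzma were higher and Cx3cr1 and Il18r1 lower, and without Ac the lower calls were lost. Of 14 residency genes Itga1 was higher and Xcl1 lower, both also within depth and neither without Ac. This is 1 gene or 7.14% each way, against 3.27% and 3.56% over all genes. Of 40 transcription factors Lef1 and Hopx were higher and Ikzf2 and Irf8 lower (5.00% each way, near the share over all genes). Within depth Hopx was higher and Tox and Ikzf2 lower, and without Ac the calls of Lef1 and Irf8 were lost. Hopx, a cofactor found in effector-memory cells, was at 279, 402, 289 and 362 CPM against 189, 238, 153 and 169 CPM (0.83 ± 0.11). Of 17 immediate early genes, Dusp2 was higher and Ier3 lower (5.88% each way, near the share over all genes), and within depth none was called.

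Of 30 tested S, G2 and M phase genes, 12 fell (40.0%, against 3.56% of all genes) and none rose, with a median of -0.68. Without Ac 4 of the 12 kept their call. Stmn1, a microtubule regulator of dividing cells, was at 94.2, 35.4, 76.1 and 128.5 CPM in members and at 156, 120.4, 133 and 188 CPM in other cells (-1.03 ± 0.17), and at -0.33 within depth with an adjusted p of 0.2427. Within depth none of the 30 was called in either direction, and the gate had already limited Mki67 and Top2a in both sets. Of 25 glycolysis and hypoxia genes Slc2a3 rose (4%, near the share over all genes) and 7 fell (28%, against 3.56%). With cells ranked within depth Slc2a3 rose and Gapdh and Ldha fell. Without Ac the calls of Slc2a3, Pkm, Slc16a3 and Ndrg1 were lost. Ldha, lactate dehydrogenase, was at 494, 461, 411 and 510 CPM against 669, 775.5, 684 and 845 CPM (-0.66 ± 0.09), and kept an adjusted p of 0.01866 within depth with a change of -0.32. None of 35 genes of oxidative phosphorylation was called in either direction by edgeR, and within depth Ndufa4 was lower. Of 31 small ribosomal protein genes 10 were lower (32.3%, against 3.56% of all genes) and none higher, and 9 were lower within depth. Without Ac 4 of the 10 kept their call. Rps2 was at 3420, 2889, 2763 and 2866 CPM in members against 4093, 4020, 3685 and 4183 CPM (-0.43 ± 0.06).

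Among called genes with a mean of at least 20 CPM and 1 sign in all libraries, the 15 with the largest falls were mostly known from antigen-presenting cells. Below that level Ccl1, Csf2 and Cd81, among others, had lower fitted values, each with 1 UMI in all members together. H2-Aa and H2-Eb1, MHC class II chains, were at 6.73, 10.5, 335 and 70.1 and at 16.8, 9.56, 221 and 27.3 CPM in members, and at 634, 244, 683.5 and 84.5 and at 550.2, 218, 554 and 73.9 CPM in other base cells. Cd74, C1qb, Cxcl16, Ctsl, Cd83, Fcgr3, Clec4n, Cd63, Fabp5, Basp1, Ccl9, Tbc1d4 and the fibroblast gene Dcn completed the 15 lowest, at log2 fold changes of -3.72 for Basp1 to -2.51 for C1qb. With cells ranked within depth, Basp1, Clec4n, Fcgr3, Cd83, Ccl9, Fabp5, Cxcl16, Cd74 and C1qb lost their calls, and Tbc1d4 turned to 0.24. Cd63, H2-Eb1, H2-Aa, Ctsl and Dcn stayed called lower there. Macrophage markers, of which none of 13 was at 0 in members, summed to 67.3, 101, 1675 and 822 CPM in members and to 1249, 866, 3344 and 565 CPM in other cells. Cells with 2 or more UMIs of a myeloid list or 5 or more of a dendritic list made up 5.71%, 8.13%, 26.3% and 15.2% of members and 22.9%, 16.1%, 35.3% and 28.5% of other base cells. With such cells removed from both sets, 291 genes were higher and 268 lower, 233 and 172 of them called before as well; H2-Aa then stood at 0.08 and Cd74 at -0.39, with adjusted p of 0.9695 and 0.5349. Monocyte markers summed to 50.4, 95.6, 518 and 1822 CPM in members and 1083, 631, 1665 and 511 CPM in other cells, and NK markers to 773, 418, 1225 and 1008 CPM against 1085, 692, 1506 and 793 CPM. Their part in the calls was not tested beyond this removal. Of other cell types, 7 of 10 neutrophil, 6 of 8 B cell and 7 of 8 gamma delta T cell markers had no UMI in members. Of 17 tested genes of natural killer receptors and their adaptors, Klra7, Klra3 and Klrk1 were called higher and Klrb1b, Fcgr3, Tyrobp and Fcer1g lower. These are 17.6% and 23.5%, against 3.27% and 3.56% over all genes. Myeloid cells also carry Fcgr3, Tyrobp and Fcer1g. Within depth Klrk1 was at 0.03 (adjusted p = 0.9529), Fcgr3 lost its call (adjusted p = 0.484), and Tyrobp and Fcer1g stood at 0.40 and 0.07, on the other side. Within depth Klra3, Klra7 and Klrg1 were higher and Klrb1b and Klri2 lower, and without Ac the calls of Klrk1, Klrb1b, Tyrobp and Fcer1g were lost. Klra7 and Klra3 belong to a family of similar genes and rested on 36 and 42 member UMIs, with 41.7% and 30.95% of them in 1 cell.

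Levels of several genes followed Ly6c2 over all base cells. Base cells were split into 677 without a Ly6c2 UMI, 607 and 608 in the lower and upper part of the other positive cells, and the 210 members. Ly6a averaged 374.5 ± 101.9, 476.8 ± 87.4, 563.9 ± 151.2 and 1023 ± 140.3 CPM over these steps (SD, n = 4 libraries). Isg15 averaged 71.3 ± 8.64, 83.0 ± 13.02, 99.9 ± 7.0 and 214.5 ± 49.6 CPM, so most of its difference lay in the last step. Tnfrsf4 ran the other way, with 195.0 ± 9.1, 117.7 ± 17.7, 83.5 ± 19.4 and 40.3 ± 24.3 CPM. Ccl5 did not climb evenly, with 2428, 1970, 2888 and 5067 CPM. The median total of the cells was 9674, 11463, 10007.5 and 7807.5 UMIs, so depth moved with the last step; its part in these levels was not tested.

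**Figure D4:**
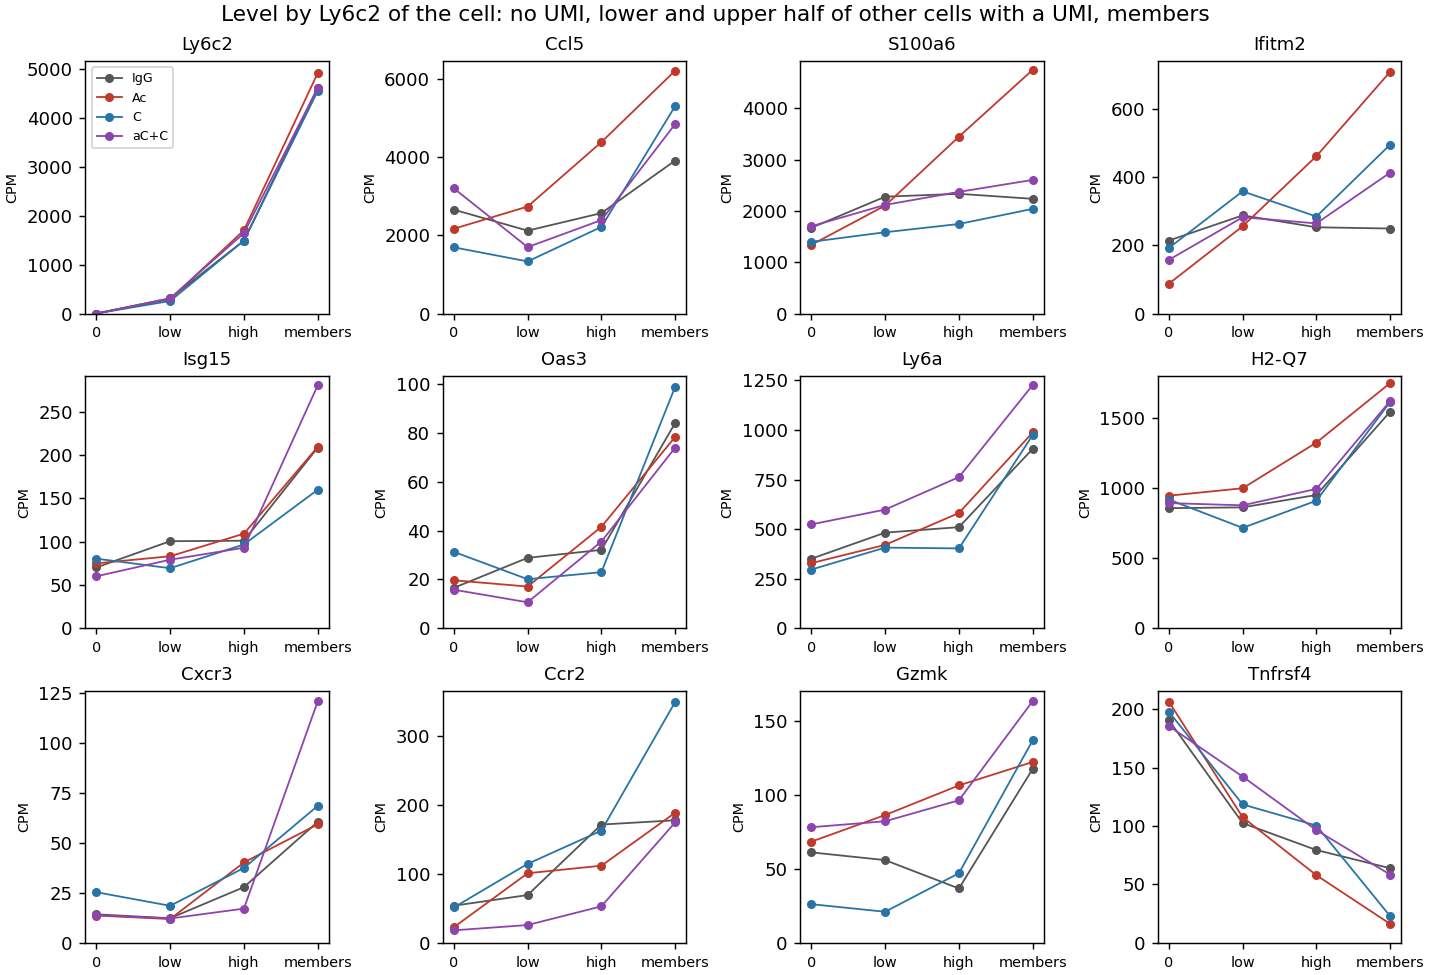
Mean level in CPM (vertical) of 12 genes in base cells with no Ly6c2 UMI, in the lower and upper part of the other positive cells, and in members (horizontal), 1 line per library. Tnfrsf4 falls from 195.0 to 40.3 CPM on average, Ly6a climbs from 374.5 to 1023, and S100a6 and Ifitm2 reach their highest member levels in Ac.

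Members were then compared between libraries, Ac, C and aC+C each with IgG, as ratios of CPM with exact intervals for counting error over genes with at least 100 UMIs in both libraries together. All 3 comparisons share the 35 IgG members. Among 1778 genes in Ac, 18 were higher by 2 times or more (1.01%) and 16 lower by as much (0.900%); in other base cells none of these 1778 genes was that much higher and 1, Ifitm3, was that much lower. Ifitm2 was 2.85 times as high in Ac members as in IgG members (2.24 to 3.67), and 1.07 times (1.00 to 1.15) in other base cells. S100a6 was 2.12 times as high (1.959 to 2.307), against 1.11 in other base cells. In the IgG members 32.4% of Ifitm2 UMIs came from 1 cell. Osgin1, an oxidative stress gene, had the highest ratio, 3.38 (2.09 to 5.81; 1.24 in other base cells), followed by Ppp3cc, a calcineurin subunit, at 2.90. BC021614 and Pkp3, a desmosome protein, were at 2.72 and 2.70.

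The lowest ratio of Ac to IgG members was that of Gzmf, a granzyme next to those of the gate, at 0.0771 (0.0587 to 0.100; 0.599 in other base cells). It was at 69.8 CPM in Ac and 905 in IgG, where 39.0% came from 1 cell. Klf2, a factor of resting and circulating T cells, was at 38.2 CPM in Ac members, 205 in IgG, 289 in C and 89.6 in aC+C, a ratio of 0.186 (0.122 to 0.282) of Ac to IgG against 0.723 in other base cells. Irf8 was at 0.358 (0.283 to 0.454, and 0.656 in other base cells), Fcer1g at 0.332 and the noncoding Gm26917 at 0.258. Of the Fcer1g UMIs of IgG members, 50% came from 1 cell. Isg15 was at a ratio of 1.00 between members of Ac and IgG (0.754 to 1.35) and Ly6c2 at 1.06 (1.00 to 1.13). Ccl5 was 1.59 times as high (1.49 to 1.69; 1.29 in other base cells). Whether any of these ratios stands out from differences between 2 libraries of 1 group was not tested.

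Among 526 genes in C, 7 were higher than in IgG by 2 times or more (1.33%) and 3 lower (0.570%); the same genes in other base cells gave 2, among them Gm10076, and 0. Of the 7, Cd74 was at 868 CPM against 13.5, with 94.7% of its C UMIs in 1 cell, and Ctss, a protease of antigen-presenting cells, had 74.6% in 1 cell. Pdcd1 was lowest, at 0.329 (0.185 to 0.549; 0.739 in other base cells), on 17 UMIs in 19 cells. The splicing factor Sf3b1, at 0.482, and Gm8369, at 0.489, were the other two.

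Among 709 genes in aC+C, 15 were higher than in IgG by 2 times or more (2.12%) and 3 lower (0.423%). The same genes in other base cells gave 3 higher, among them Gm10073 and Gm10076, and 5 lower (Cst3, Ctss, Psap, Lyz2 and Fos). Lyz2, lysozyme of myeloid cells, was at 1304 CPM against 13.5, with 90.4% of its UMIs in 1 cell. Gzma was at 740 CPM against 276, a ratio of 2.68 (2.06 to 3.52; 1.54 in other base cells), with 40.0% of its UMIs in 1 cell of aC+C and 58.5% in 1 cell of IgG. Nr4a2, a gene switched on soon after receptor signals, was lowest at 0.394 (0.277 to 0.553), and at 0.522 in other base cells. Fosb, of the same early response, was at 0.402 (0.588 in other base cells). Ifng was at 0.470 (0.316 to 0.689), with other base cells at 1.14 (1.05 to 1.24). However, 49.0% of the Ifng UMIs of IgG members and 23.1% of those of aC+C members came from 1 cell each. Gm10073 was higher in aC+C in members, by 2.59, and in other base cells, by 2.79.

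**Figure D5:**
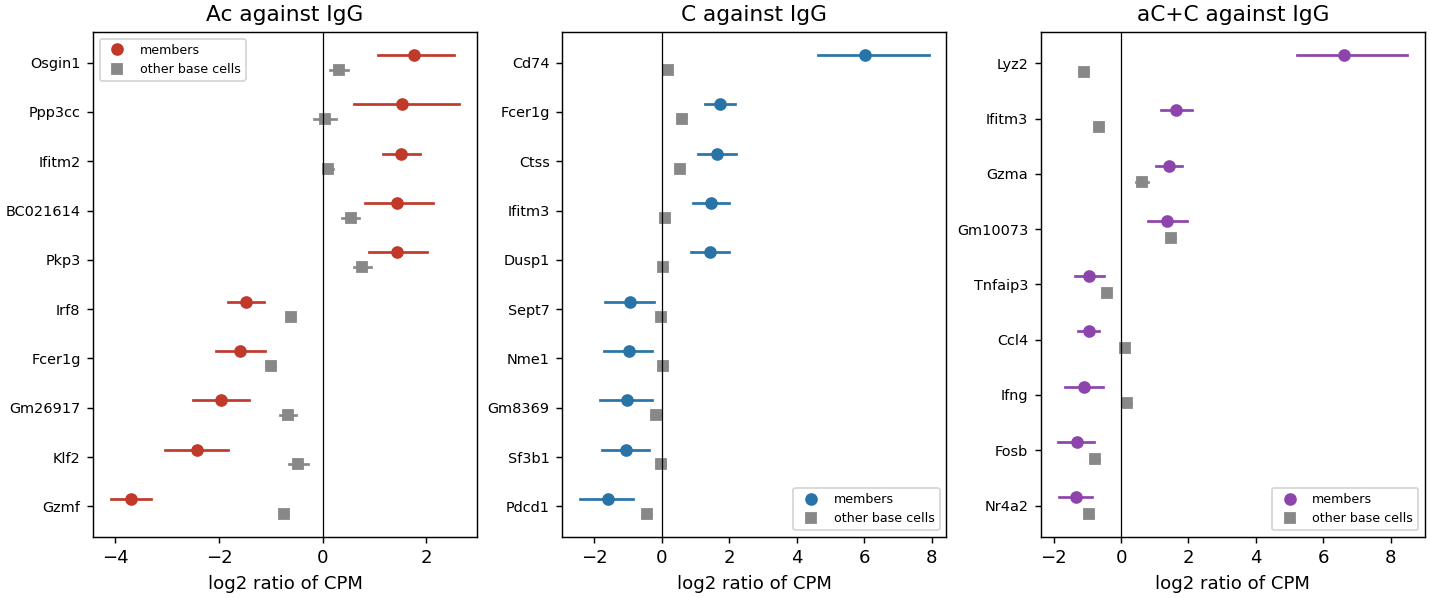
The log2 ratio of CPM to IgG (horizontal) with exact 95% intervals for counting error, for genes among the 5 highest and 5 lowest in members of Ac, C and aC+C; circles are members and grey squares the same gene in other base cells. Ifitm2 in Ac stands at a ratio of 2.85 in members and 1.07 in other base cells, and Cd74 in C and Lyz2 in aC+C rest on 1 cell each.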

How the data were processed

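The authors deposited UMI counts by gene for each barcode of 4 libraries, without normalization, and lists of barcodes and gene names. Per the labels' protocols, libraries were made with the v2 kit of 10x Genomics for 3' ends; per the submitters' processing notes, Cell Ranger 2.1.1 and mm10, whereas the file headers name software 3.0.2. The annotation release is not given in the sources used here. Each matrix lists 6794880 barcodes and 27998 genes, so cells were not selected in it.

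Barcodes with at least 1000 UMIs, 200 genes and at most 10% mitochondrial UMIs were kept. Doublets stayed in; removing the highest Scrublet scores (scanpy 1.11.5, 0.8% per 1000 cells) was an alternative. The members and gene lists were chosen with earlier results of these data known. UMIs were summed over members and other base cells per library and tested with edgeR 4.0.16 (TMM, filterByExpr, quasi-likelihood, threshold 0.05). The library was a block because both sums come from 1 suspension. Genes that the rule uses (the gate, Ly6c2 and the mitochondrially encoded genes) were left out of the counts. Ly6c1, which the rule does not use, was left out too. The spread between libraries also holds any effect of the 4 groups. DESeq2 1.42.0 was an alternative, and the script was tested on simulated data. Named genes were the label markers, the 15 highest and 15 lowest called genes with 1 sign in all libraries and a mean of at least 20 CPM (no ribosomal protein or Gm-named genes), up to 4 called genes each way per list with some uncalled ones for their role, and the 5 highest and lowest ratios per library. B2m, Bst2, Cd3g, Gpr183, H2-K1, Irf7, Itgal, Itgb7, Ldha, Nkg7 and Selplg fell outside this and were chosen after their values were seen. Ratios between libraries needed 100 UMIs of a gene in the pair. T cell receptor genes are not analysed here. Intervals are exact at 95% (for a ratio of shares, on the log scale). UMIs of 1 cell are not independent. Some named genes are not reported here, but stay in the counts.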

Additional observations from a re-analysis of the deposited data

Results flagged for a closer look

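In 2 genes the members differed from the other base cells in opposite directions between libraries, by intervals that lay past 1.5 times on both sides; this threshold was set with the data known, and the difference between libraries was not tested. The ratio of Gzmf in members to other base cells was 0.221 in Ac but 1.72 in IgG, 1.53 in C and 3.14 in aC+C. Members had 269, 73, 143 and 483 Gzmf UMIs in IgG, Ac, C and aC+C, and 49.5% of all of them came from 1 cell. Only aC+C had enough UMIs to hold that cell, so its ratio of 3.14 rests almost wholly on it. Within IgG 39.0% and within Ac 37.0% of the Gzmf UMIs of members came from 1 cell. The gate limits Gzmd, Gzme and Gzmg in the same cells. For Ifitm3 the ratio was 2.37 in aC+C and 1.24 in C, against 0.485 in IgG and 0.5 in Ac. Of its member UMIs, 65.5% in IgG, 48.6% in C and 32.3% in aC+C came from 1 cell each. Macrophages carry Ifitm3, and macrophage markers summed to 67.3, 101, 1675 and 822 CPM in the members of IgG, Ac, C and aC+C. The part of macrophage RNA in these ratios was not tested.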

How the results depend on the processing

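The 290 higher and 316 lower calls became 177 and 127 with DESeq2, 193 and 165 with no replicate block, and 121 and 97 with cells ranked within depth. With antigen-presenting cell RNA removed as well, a choice made after seeing the data, they were 135 and 91. Higher calls were 188 with the top 5%, 462 with the top 20% and 190 with at least 5000 UMIs. Leaving out 1 library gave 139 to 259 higher and 116 to 344 lower, fewest without Ac; the cause was not tested. Of 100 named genes, 54 kept direction and call within depth, 42 lost the call and 4 turned: Tbc1d4 (0.24), Il2ra (0.022), Tyrobp (0.40) and Fcer1g (0.067). With antigen-presenting cell RNA removed H2-Eb1 (0.35), H2-Aa (0.078) and Tyrobp (0.63) turned, and with depth too H2-Aa (0.059), Il2ra (0.28), Ier3 (0.053) and Tyrobp (0.23). None passed the threshold in the turned direction.

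The ratio of shares of Ac to IgG stayed between 2.04 and 3.15 in all alternatives that rank over pooled libraries. Counts between libraries rest on few UMIs and moved often. For Ac, genes higher were 8 with the top 5%, 56 with at least 50 UMIs and 29 with TMM scaling; genes lower were 7 and 28 with the top 5% and 20%, 43 within depth, 9 with at most 5% mitochondrial UMIs, 9 with myeloid RNA removed, 9 with antigen-presenting cell RNA removed and 53 with at least 50 UMIs. For C, genes higher were 0 and 14 with the top 5% and 20%, 12 within depth, 3 with at most 5% mitochondrial UMIs, 4 without doublets, 4 without myeloid RNA, 3 and (within depth) 4 without antigen-presenting cell RNA, and 18 with at least 50 UMIs; genes lower were 6 and 7 with the top 5% and 20%, 15 within depth, 6 when antigen-presenting cell RNA was removed too, 13 with at least 50 UMIs and 5 with TMM. For aC+C, genes higher were 4 with the top 5%, 9 within depth, 8 with at most 5% mitochondrial UMIs, 6 without myeloid and 6 without antigen-presenting cell RNA, and 31 with at least 50 UMIs; genes lower were 0 and 10 with the top 5% and 20%, 23 within depth, 6 when antigen-presenting cell RNA was removed too, and 18 with at least 50 UMIs.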

Other observations

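Some of the 15 highest genes belong to none of the lists. Gramd3, a GRAM domain protein, was at 195, 275, 259 and 175 CPM in members of IgG, Ac, C and aC+C and at 72.5, 118.5, 68.7 and 76.8 CPM in other base cells, without overlap (edgeR, log2 fold change 1.39 ± 0.13, adjusted p = 9.368e-08; 0.96 within depth). Slco3a1, an organic anion transporter, was at 43.7, 38.2, 76.1 and 27.3 CPM against 18.1, 14.7, 19.7 and 14.9 CPM (1.38 ± 0.25), and lost its call within depth (adjusted p = 0.147). Samd3 was at 37.0, 50.7, 15.2 and 42.8 CPM against 15.5, 17.1, 12.0 and 8.92 CPM (1.55 ± 0.27; within depth 0.93, adjusted p = 0.08052).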
